A study of Homo sapiens with 2 samples.

Results

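The genes described here encode cell-surface proteins that hold axons and synapses together. They were taken by symbol from the count table: the neurexins, neuroligins, LRRTM, SLITRK, LRFN and FLRT proteins, teneurins, contactins and contactin-associated proteins, the 4 genes of the L1 family, NCAM1 and NCAM2, and the IgLON genes LSAMP, NTM, OPCML and NEGR1. That gave 50 of the 24462 gene symbols counted. The rule also asks for the latrophilins under the symbol LPHN, and no row carried it. Their current symbols, ADGRL1 to ADGRL3, are outside the rule and are given separately.

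RNA was compared between neural precursor cells (NPC) made from the line H9 and undifferentiated H9 human embryonic stem cells (hESC). H9 is an established pluripotent human line. The NPC had been made by co-culture on MS5, a mouse stromal cell line, and both groups share the H9 background, with no allele or agent named in the labels. Total RNA went into mRNA libraries made with a SMARTER kit, 1 library per group, so culture, library and group cannot be told apart, and whether feeder RNA is present was not tested. No p-value is therefore possible, and every interval below is a 95% counting interval that holds no variation between cultures.

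Adhesion at a developing synapse works as a lock between partners on facing membranes. Neurexins sit on the axon and bind neuroligins and LRRTM proteins on the dendrite, SLITRK proteins bind receptor tyrosine phosphatases, and FLRT proteins and teneurins bind latrophilins. Contactins, the L1 family, NCAM and the IgLON proteins act mostly along the axon, where they guide outgrowth, bundle axons and anchor the membrane to the cytoskeleton. Many of these genes are already transcribed in progenitors and young neurons before synapses form.

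Most of the adhesion genes were higher in NPC. Of the 50 genes, 46 reached the filter of 5 CPM (scaled counts per 1e+06 reads) in either library. A call required the bound of the ratio on the side of no change to reach 2-fold, and 33 of the 46 were called higher and 1 lower, while 12 were not called. Over all 13535 genes past the filter, 19.6% were called higher and 19.8% lower. The median log2 ratio (NPC over hESC) was 2.58 for the 46 genes and -0.09 for all measured genes. The filter favours this direction: 18 of the 46 reached 5 CPM in the NPC library only, so a lower call was closed to them. Among the 28 that reached it in the hESC library as well, 15 were higher, against 11.7% of all 11897 genes that did so.

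**Figure D1:**
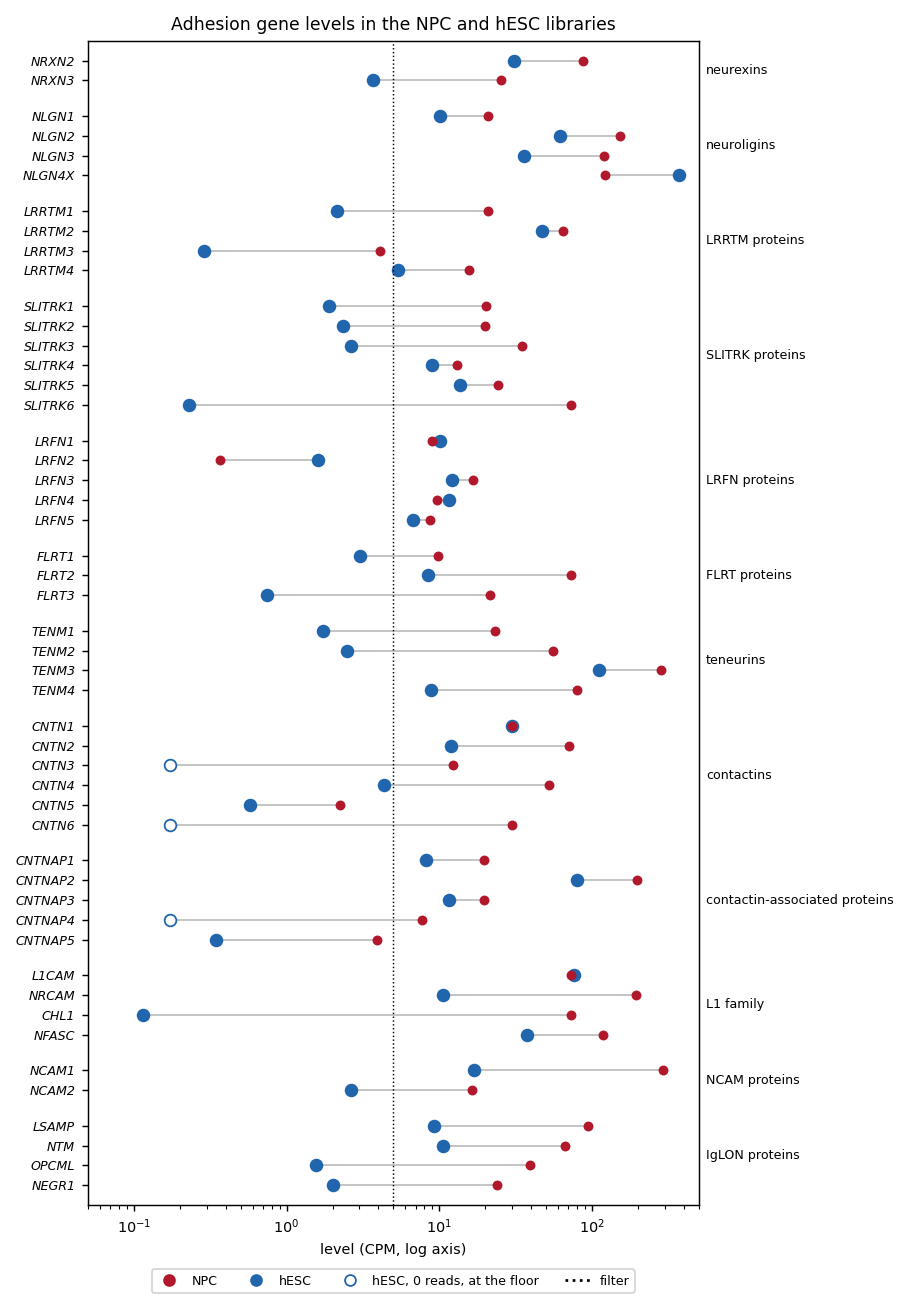
Level of 49 adhesion genes, in CPM on a log axis, in the NPC library (red) and the hESC library (blue), grouped by family. Open blue circles mark genes with 0 hESC reads, drawn at the floor of 3 reads, and the dotted line is the filter of 5 CPM. With TMM scaling, NPC points lie to the right for 43 of 49 genes, and NLGN4X stands out with 122 CPM in the NPC library and 369.7 CPM in the hESC library.

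The summed level of the 50 genes was 2898 CPM in the NPC library and 1101 CPM in the hESC library, from 78831 NPC reads and 19132 hESC reads. All 50 had reads in the NPC library and 47 in the hESC library, where CNTN3, CNTN6 and CNTNAP4 had 0. A count of 0 allows up to 0.173 CPM in the hESC library. The gene median was 27.7 CPM in the NPC library and 8.34 CPM in the hESC library. In bulk RNA, a smaller fraction of expressing cells and less RNA per cell cannot be told apart.

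The libraries held 24065750 counted reads for the NPC and 19686728 for the hESC. Most markers of the labelled cell types followed the labels. All 9 pluripotency markers were lower in the NPC library, where they summed to 47.9 CPM, against 8127 CPM in the hESC library. Of 9 measured neural progenitor markers 7 were higher, while SOX2 (ratio 1.33) and NES (ratio 1.03) were not called. The list summed to 4909 CPM in the NPC library and 861 CPM in the hESC library. Of these sums, VIM alone gave 3291 CPM in the NPC library and 237 CPM in the hESC library. Neuron markers mostly moved with the adhesion genes, with 10 of 14 measured genes higher and 1 lower. The lower gene was RBFOX3, with 2.17 CPM in the NPC library and 22.8 CPM in the hESC library. TUBB3, SYT1 and SYP were not called. The neuron list summed to 1996 CPM in the NPC library and 416 CPM in the hESC library. MAP2 alone gave 861 CPM in the NPC library, and SLC17A6 was at 0 in the hESC library. Among other cell types, 7 of 10 measured stroma and fibroblast markers were higher and 2, THY1 and TAGLN, were lower, with a sum of 1830 CPM in the NPC library and 946 CPM in the hESC library and FN1 the most abundant in the NPC library. Of 4 measured astroglial markers, SLC1A3, S100B and SLC1A2 were higher and GJA1 was lower, with 159 CPM in the NPC library and 404 CPM in the hESC library. The whole astroglial list summed to 301 CPM in the NPC library and 434 CPM in the hESC library, and the oligodendrocyte and Schwann cell list to 79.3 CPM in the NPC library and 162 CPM in the hESC library, with MAG at 0 in the NPC library. The part of these cell types in the adhesion gene ratios was not tested.

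The largest differences were in genes close to silent in the hESC library. CHL1, CNTN6 and SLITRK6 had the 3 interval bounds farthest from no change, and NLGN4X was the only gene called lower. Their RefSeq promoter windows (GRCh38.p14, 250 bases before to 50 after the annotated start, written in the sense of the gene) are shown to set the 3 genes highest by this measure beside the lowered gene. They lie at chr3:197639-197938 on the plus strand for CHL1, chr3:1092774-1093073 plus for CNTN6, chr13:85799370-85799669 minus for SLITRK6 and chrX:6228818-6229117 minus for NLGN4X. Capitals mark matches, on either strand, to ACAAAG or ACAATG (SOX factor cores), CAGCTG or CAGATG (E-boxes) or ATGCAAAT (the POU octamer).
CHL1: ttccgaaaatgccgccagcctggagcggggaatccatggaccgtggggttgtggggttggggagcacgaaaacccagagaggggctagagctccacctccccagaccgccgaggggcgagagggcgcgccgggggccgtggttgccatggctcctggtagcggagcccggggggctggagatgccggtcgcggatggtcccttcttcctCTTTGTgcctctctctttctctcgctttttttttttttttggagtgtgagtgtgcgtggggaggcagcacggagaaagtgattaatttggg
CNTN6: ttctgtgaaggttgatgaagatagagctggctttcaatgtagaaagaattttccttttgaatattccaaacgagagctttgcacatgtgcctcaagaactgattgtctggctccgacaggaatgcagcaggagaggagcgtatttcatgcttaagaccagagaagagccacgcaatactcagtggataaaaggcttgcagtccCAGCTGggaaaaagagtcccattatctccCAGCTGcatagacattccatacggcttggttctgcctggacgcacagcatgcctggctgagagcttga
SLITRK6: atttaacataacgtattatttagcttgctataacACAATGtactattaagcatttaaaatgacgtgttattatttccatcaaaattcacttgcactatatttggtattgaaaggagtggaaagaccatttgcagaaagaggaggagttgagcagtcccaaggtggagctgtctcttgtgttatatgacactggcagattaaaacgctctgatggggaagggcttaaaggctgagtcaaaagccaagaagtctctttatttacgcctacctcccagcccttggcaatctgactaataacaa
NLGN4X: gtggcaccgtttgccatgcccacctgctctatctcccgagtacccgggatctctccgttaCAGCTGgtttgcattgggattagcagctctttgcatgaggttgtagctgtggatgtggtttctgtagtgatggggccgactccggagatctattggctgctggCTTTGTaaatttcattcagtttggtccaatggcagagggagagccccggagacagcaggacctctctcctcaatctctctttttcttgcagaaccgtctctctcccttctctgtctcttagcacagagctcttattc

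Promoter windows were found for 44 of the 50 genes. The core ACAAAG was in 6 of the 44 (13.6%) and in 16.0% of all 27305 promoter windows, and ACAATG was in 3 (6.82%), against 11.0% of all windows. The E-box CAGCTG was in 8 (18.2%), against 17.7%, and CAGATG was in 7 (15.9%), against 14.8%. The octamer occurred in 1 window, that of TENM2 (2.27%, against 1.80% of all). These shares were close to those of all promoters, and the windows show letters only, since RNA counts do not say which start was used. The GC content of the 4 windows printed was 61.7% for CHL1, 47.3% for CNTN6, 38.7% for SLITRK6 and 52.0% for NLGN4X, against a median of 60.5% for the 44 genes and 58.3% for all windows.

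Of the neurexins, the presynaptic receptors, NRXN2 and NRXN3 were higher. NRXN2 had 87.7 CPM in the NPC library and 30.7 CPM in the hESC library, a ratio of 2.86 (2.598 to 3.14). NRXN3 had 25.5 CPM in the NPC library and 3.68 CPM in the hESC library, a ratio of 6.94 (5.37 to 9.11). Both were thus transcribed in the NPC and the hESC library. Per length, NRXN2 had the higher level of the pair in both libraries, with 13.2 CPM per kb of its longest annotated transcript in the NPC library and 4.64 CPM per kb in the hESC library.

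Neuroligins, the classical postsynaptic partners of neurexins, were the only family with calls in both directions. NLGN2, which acts at inhibitory synapses, had 153 CPM in the NPC library and 61.7 CPM in the hESC library, a ratio of 2.49 (2.32 to 2.66). NLGN3, found at both excitatory and inhibitory synapses, had 120.0 CPM in the NPC library and 36.0 CPM in the hESC library, a ratio of 3.34 (3.06 to 3.64). NLGN4X, the X-linked neuroligin 4, went the other way, with 122 CPM in the NPC library and 369.7 CPM in the hESC library, and was 3.02-fold lower (2.90 to 3.15). NLGN1, an excitatory synapse protein, had 20.8 CPM in the NPC library and 10.1 CPM in the hESC library and was not called (2.05, 1.73 to 2.45), but passed with library totals or by the point ratio alone.

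With TMM scaling, the summed level of the 4 neuroligins per length was similar, at 87.0 CPM per kb in the NPC library and 86.7 CPM per kb in the hESC library. Without division by length the sums were 416 CPM in the NPC library and 477 CPM in the hESC library. Library totals would shift the comparison by 0.36 on the log2 scale. The make-up of the family differed. NLGN4X gave 29.4% of the family's 11326 reads in the NPC library (exact binomial interval 28.5 to 30.2%) and 77.4% of the 8299 reads in the hESC library (76.5 to 78.3%). There were 0.447 NLGN4X reads per read of NLGN2 and NLGN3 in the NPC library and 3.79 in the hESC library, a comparison that no scaling factor touches. Per length, NLGN4X was the most abundant adhesion gene of the hESC library at 63.0 CPM per kb, and the sixth of the NPC library at 20.8 CPM per kb. NLGN4X has a near-identical copy on the other sex chromosome, so its reads are uncertain to the extent that the counting split them.

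**Figure D2:**
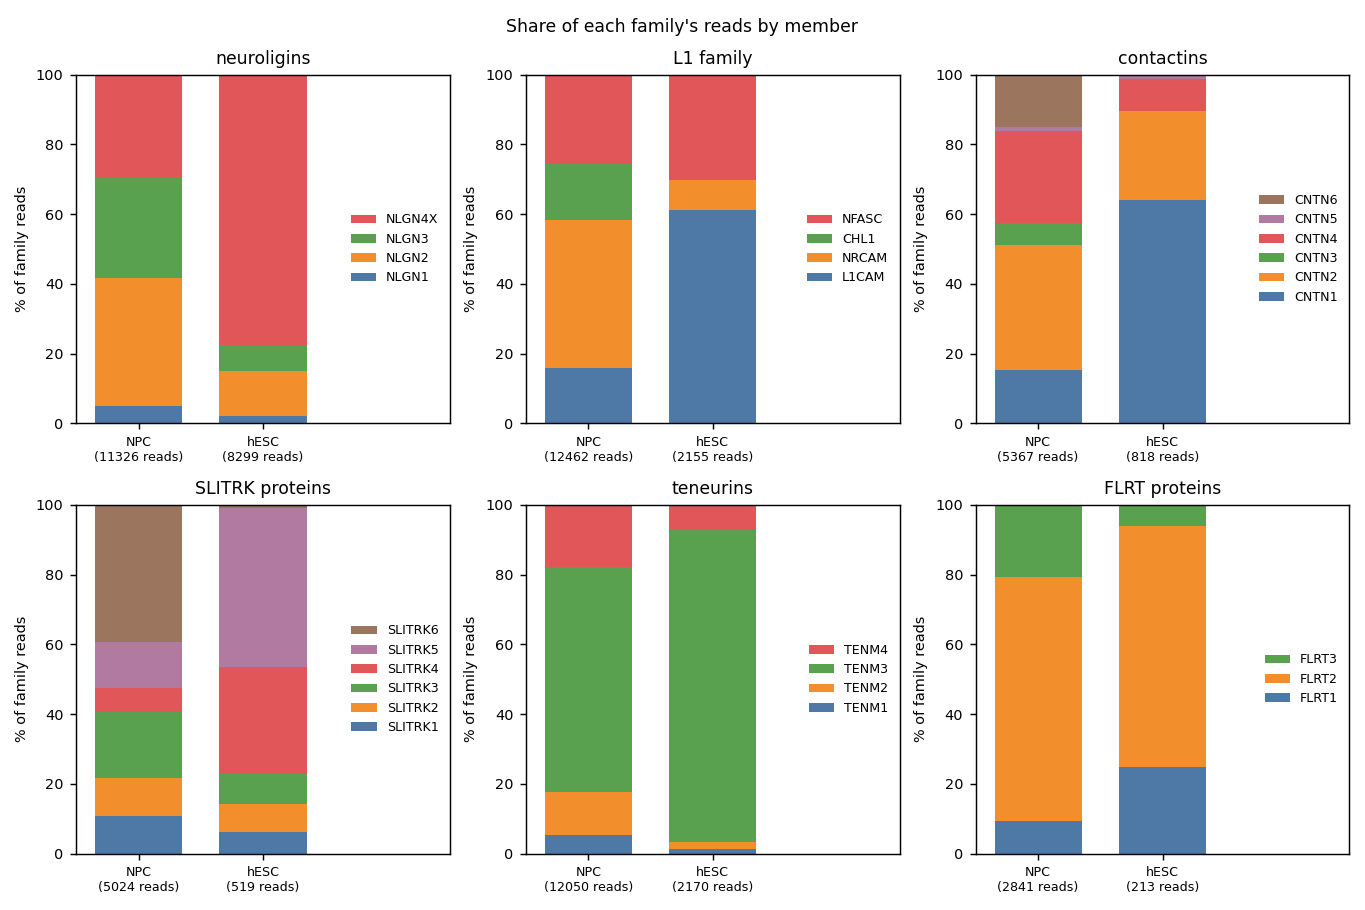
Share of a family's reads given by each member, as stacked bars that start at 0 and end at 100%, with the NPC library on the left and the hESC library on the right of each panel. NLGN4X (red, first panel) gave 29.4% of neuroligin reads in the NPC library and 77.4% in the hESC library, and L1CAM, CNTN1 and TENM3 also gave smaller shares in the NPC library.

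LRRTM proteins are leucine-rich repeat proteins of excitatory synapses that bind neurexins. LRRTM1 had 20.9 CPM in the NPC library and 2.13 CPM in the hESC library, a ratio of 9.83 (7.04 to 14.1), and LRRTM4 had 15.7 CPM in the NPC library and 5.35 CPM in the hESC library, a ratio of 2.94 (2.35 to 3.72). LRRTM2 had 64.5 CPM in the NPC library and 46.9 CPM in the hESC library and was not called (1.38, 1.27 to 1.497). LRRTM3 stayed below the filter, with 112 reads in the NPC library and 5 in the hESC library. LRRTM1, LRRTM2 and LRRTM3 each lie inside a catenin gene on the opposite strand, and the strand setting of the counting is not given in the sources used here. The host of LRRTM1, CTNNA2, was itself 8.38-fold higher (7.26 to 9.73). CTNNA1, the host of LRRTM2, shares 445 exonic bases with it and had 15363 reads in the NPC library and 10213 in the hESC library. CTNNA3, the host of LRRTM3, was lower, with 43 reads in the NPC library and 93 in the hESC library, but did not reach the filter with library totals.

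SLITRK proteins, postsynaptic ligands of receptor tyrosine phosphatases, split into 4 genes that were higher and 2 that were not called. The 4 higher genes reached 5 CPM in the NPC library only, so a lower call was closed to them. Neither of the 2 that reached it in both libraries was higher, against 11.7% of all genes that reached it in the hESC library. Over all measured genes, 19.6% were higher. SLITRK6, known from the inner ear and retina as well as the brain, had 1976 reads in the NPC library and 4 in the hESC library, a ratio of 316 (123 to 1159.7). SLITRK3, which acts at inhibitory synapses, had 35.0 CPM in the NPC library and 2.65 CPM in the hESC library, a ratio of 13.2 (9.84 to 18.2). SLITRK1 had 20.1 CPM in the NPC library and 1.90 CPM in the hESC library, a ratio of 10.6 (7.45 to 15.5), and SLITRK2 had 19.8 CPM in the NPC library and 2.36 CPM in the hESC library, a ratio of 8.40 (6.11 to 11.8). SLITRK4 had 13.1 CPM in the NPC library and 9.03 CPM in the hESC library, and SLITRK5 had 24.1 CPM in the NPC library and 13.7 CPM in the hESC library. SLITRK6 gave 39.3% of the family's 5024 NPC reads and 0.771% of its 519 hESC reads, most of which came from SLITRK4 (30.3%) and SLITRK5 (45.9%).

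The LRFN genes, also called SALM, encode postsynaptic proteins that organise excitatory synapses, and none of them was called. LRFN1 had 8.97 CPM in the NPC library and 10.1 CPM in the hESC library, a ratio of 0.891 (0.731 to 1.09). LRFN3 had 16.7 CPM in the NPC library and 12.1 CPM in the hESC library (1.38, 1.17 to 1.63), LRFN4 9.63 CPM in the NPC library and 11.5 CPM in the hESC library (0.837, 0.694 to 1.01) and LRFN5 8.71 CPM in the NPC library and 6.73 CPM in the hESC library (1.29, 1.03 to 1.63). LRFN2 had 10 reads in the NPC library and 28 in the hESC library and stayed below the filter. The median log2 ratio of the 4 measured LRFN genes was 0.10, near that of all measured genes, and scaling by library totals turns LRFN1 and LRFN4 slightly above no change (log2 ratios of 0.19 and 0.10). LRFN4 lies within the gene PC on the opposite strand and shares 621 exonic bases with it. PC had 650 reads in the NPC library and 306 in the hESC library.

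FLRT proteins link cells by binding latrophilins and UNC5 receptors, and all 3 were higher. FLRT1 and FLRT3 reached 5 CPM in the NPC library only, so a lower call was closed to them. Only FLRT2 reached it in both, and 11.7% of all genes that reached it in the hESC library were higher. FLRT2 had 73.2 CPM in the NPC library and 8.46 CPM in the hESC library, a ratio of 8.65 (7.31 to 10.3). FLRT3 had 586 reads in the NPC library and 13 in the hESC library, a ratio of 28.8 (16.7 to 54.4). FLRT1 had 9.74 CPM in the NPC library and 3.05 CPM in the hESC library, a ratio of 3.20 (2.37 to 4.38). FLRT1 and FLRT3 lie inside MACROD1 and MACROD2 on the opposite strand with no shared exon. MACROD1 had 9.85 CPM in the NPC library and 8.46 CPM in the hESC library and was not called, whereas MACROD2 was 5.42-fold higher (3.85 to 7.85).

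Teneurins, large transmembrane proteins that match axons to their targets by binding latrophilins and each other, were all higher. TENM1 and TENM2 reached 5 CPM in the NPC library only, so a lower call was closed to them. The other 2 were higher, against 11.7% of all genes that reached 5 CPM in the hESC library. TENM3 was the most abundant in both libraries, with 285 CPM in the NPC library and 112 CPM in the hESC library, a ratio of 2.55 (2.43 to 2.68). With the trend of the ratio with transcript length removed, TENM3 was no longer called (log2 ratio 0.90). TENM2 had 55.2 CPM in the NPC library and 2.47 CPM in the hESC library, a ratio of 22.3 (16.5 to 31.0). TENM4 had 79.4 CPM in the NPC library and 8.86 CPM in the hESC library, a ratio of 8.96 (7.61 to 10.6), and TENM1 had 23.2 CPM in the NPC library and 1.73 CPM in the hESC library, a ratio of 13.4 (9.31 to 20.1). TENM3 thereby gave 64.4% of the teneurin reads in the NPC library and 89.5% in the hESC library. TENM1 shares 241 exonic bases with STAG2 on the opposite strand, which had 7908 reads in the NPC library and 5231 in the hESC library.

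Among the latrophilins, the receptors for FLRT proteins and teneurins, ADGRL3 was higher, with 148 CPM in the NPC library and 11.6 CPM in the hESC library, a ratio of 12.8 (11.1 to 14.9). ADGRL1 had 162 CPM in the NPC library and 169 CPM in the hESC library, and ADGRL2 had 194 CPM in the NPC library and 121 CPM in the hESC library, and neither was called. There were 0.916 ADGRL3 reads per ADGRL1 read in the NPC library and 0.0683 in the hESC library.

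Contactins are immunoglobulin-domain proteins held to the axon membrane by a lipid anchor, and 4 of 5 measured genes were higher. Of the 5, 3 (CNTN3, CNTN4 and CNTN6) reached 5 CPM in the NPC library only, so a lower call was closed to them. Of the other 2, 1 was higher, against 11.7% of all genes that reached 5 CPM in the hESC library. CNTN6 had 810 reads in the NPC library and 0 in the hESC library and was at least 173-fold higher against a floor of 3 hESC reads. The counting interval of the ratio, which also covers the NPC count, started lower, at 139.99-fold. CNTN3, with 336 reads in the NPC library and 0 in the hESC library, was at least 71.6-fold higher against that floor (interval from 57.9-fold). CNTN4 had 52.1 CPM in the NPC library and 4.37 CPM in the hESC library, a ratio of 11.9 (9.46 to 15.2). CNTN2, which encodes TAG-1, a marker of early outgrowing axons, had 70.8 CPM in the NPC library and 12.0 CPM in the hESC library, a ratio of 5.89 (5.11 to 6.83). CNTN1, the contactin of paranodal junctions, had 30.0 CPM in the NPC library and 30.1 CPM in the hESC library (ratio 0.996, 0.891 to 1.11). The log2 ratio of CNTN1 was 0.35 with library totals and -0.27 with the length trend removed. CNTN5 had 61 reads in the NPC library and 10 in the hESC library and did not reach the filter. CNTN4-AS1, which shares 685 exonic bases with CNTN4, had 170 reads in the NPC library and 3 in the hESC library. CNTN1 gave 15.2% of contactin reads in the NPC library and 63.9% in the hESC library.

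Of the contactin-associated proteins, transmembrane relatives of neurexins, 2 of 4 measured genes were higher. CNTNAP4 reached 5 CPM in the NPC library only, so a lower call was closed to it. Of the other 3, 1 was higher, against 11.7% of all genes that reached 5 CPM in the hESC library. CNTNAP2, which encodes CASPR2 and helps to place potassium channels beside the node of Ranvier, had 198 CPM in the NPC library and 80.1 CPM in the hESC library, a ratio of 2.48 (2.33 to 2.63). It too was no longer called with the length trend removed (log2 ratio 0.87). CNTNAP4, known from mouse interneurons, had 211 reads in the NPC library and 0 in the hESC library and was at least 44.9-fold higher against the floor of 3 reads (interval from 36.2-fold). CNTNAP1, the paranodal partner of contactin 1, had 19.7 CPM in the NPC library and 8.23 CPM in the hESC library and fell just short of a call (2.40, 1.99 to 2.90), which it passed with library totals, upper-quartile factors or the point ratio alone. CNTNAP3, whose reads can be shared with its near-identical copy CNTNAP3B (29 NPC and 10 hESC reads), had 19.5 CPM in the NPC library and 11.5 CPM in the hESC library. CNTNAP5, with 107 reads in the NPC library and 6 in the hESC library, did not reach the filter.

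The L1 family binds ankyrin inside the axon, and 3 of its 4 genes were higher. One of these, CHL1, reached 5 CPM in the NPC library only, so a lower call was closed to it. Of the other 3 genes, 2 were higher, against 11.7% of all genes that reached 5 CPM in the hESC library. CHL1 had 1992 reads in the NPC library and 2 in the hESC library, a ratio of 636 (176 to 5259). NRCAM, which gathers sodium channels at nodes, had 194 CPM in the NPC library and 10.6 CPM in the hESC library, a ratio of 18.2 (15.7 to 21.2). NFASC, the gene of neurofascin, had 118 CPM in the NPC library and 37.3 CPM in the hESC library, a ratio of 3.16 (2.90 to 3.44). L1CAM, the founding member, had 73.3 CPM in the NPC library and 75.9 CPM in the hESC library (0.967, 0.901 to 1.04). The log2 ratio of L1CAM was 0.31 with library totals and -0.28 with the length trend removed. There were 2.64 NRCAM reads per L1CAM read in the NPC library and 0.140 in the hESC library. CHL1-AS1, an antisense RNA that shares 238 exonic bases with CHL1, had 89 reads in the NPC library and 0 in the hESC library.

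NCAM1, the neural cell adhesion molecule, had 293 CPM in the NPC library and 16.8 CPM in the hESC library, a ratio of 17.4 (15.5 to 19.7). It was the most abundant adhesion gene of the NPC library per length, at 48.5 CPM per kb, against 2.78 CPM per kb in the hESC library. NCAM2 had 16.3 CPM in the NPC library and 2.65 CPM in the hESC library, a ratio of 6.15 (4.54 to 8.53). Both genes of the enzymes that add polysialic acid to NCAM were higher as well. ST8SIA2 had 87.2 CPM in the NPC library and 8.05 CPM in the hESC library, a ratio of 10.8 (9.12 to 12.9), and ST8SIA4 had 20.7 CPM in the NPC library and 1.21 CPM in the hESC library, a ratio of 17.1 (11.1 to 27.9). NCAM1-AS1 shares 552 exonic bases with NCAM1 and had 527 reads in the NPC library and 16 in the hESC library.

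The IgLON genes encode small lipid-anchored proteins that pair with each other on neurons, and the 4 among the 50 were higher. OPCML and NEGR1 reached 5 CPM in the NPC library only, so a lower call was closed to them. The other 2 of these were higher, against 11.7% of all genes that reached 5 CPM in the hESC library. LSAMP had 94.4 CPM in the NPC library and 9.20 CPM in the hESC library, a ratio of 10.3 (8.74 to 12.1). NTM, the gene of neurotrimin, had 66.4 CPM in the NPC library and 10.6 CPM in the hESC library, a ratio of 6.24 (5.36 to 7.30). OPCML had 39.3 CPM in the NPC library and 1.55 CPM in the hESC library, a ratio of 25.3 (17.3 to 38.6), and NEGR1 had 23.9 CPM in the NPC library and 2.01 CPM in the hESC library, a ratio of 11.9 (8.46 to 17.2). IGLON5, the fifth gene of the family, is not among the 50. It had 72.4 CPM in the NPC library and 93.3 CPM in the hESC library and was not called (0.776, 0.726 to 0.829).

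**Figure D3:**
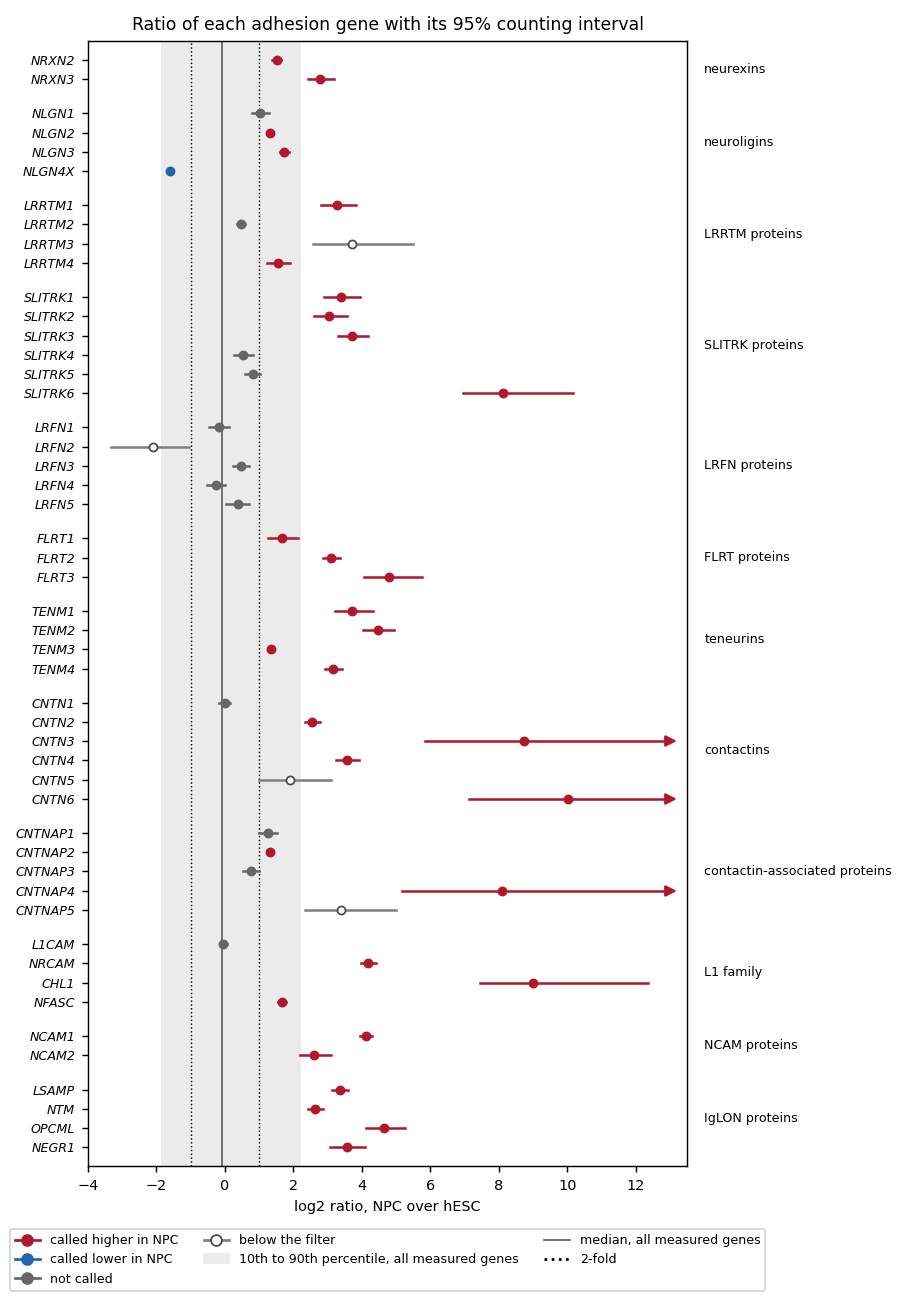
Log2 ratio (NPC over hESC) of 49 adhesion genes, each with its 95% counting interval, coloured by call. The grey band spans the 10th to 90th percentile of all measured genes (-1.84 to 2.20), the grey line is their median (-0.09), and arrows mark intervals without an upper limit, whose points depend on the 0.5 added to each count. NLGN4X is the only gene called lower. With TMM scaling, the 4 measured LRFN genes, CNTN1 and L1CAM lie near no change.

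The adhesion genes as a set were spread over more members in the NPC library. In units of CPM per kb, 8 genes (NCAM1, NLGN2, NLGN3, NRCAM, TENM3, NLGN4X, NTM and CNTNAP2) held 51.9% of the summed level in the NPC library. In the hESC library 3 genes (NLGN4X, L1CAM and NLGN2) held 50.9%. NLGN4X alone gave 4.72% of the level in the NPC library and 35.2% in the hESC library. NCAM1 gave 11.0% in the NPC library and 1.55% in the hESC library. By family, neuroligins gave 19.7% in the NPC library and 48.4% in the hESC library, while the IgLON genes gave 8.71% in the NPC library and 2.62% in the hESC library. The longest annotated transcripts of SLITRK5 and FLRT2 run to 21.1 and 33.7 kb, which lowers their values per kb.

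These genes are long. Their longest transcripts had a median of 5.71 kb, against 3.76 kb for all measured genes, and the genes spanned 3.83 to 2305 kb. Of the 22 genes that span over 300 kb, 20 were measured, with 17 higher, 1 lower and a median log2 ratio of 2.97. Of the 28 shorter genes, 26 were measured, with 16 higher and a median of 1.66. Both groups hold genes that reached 5 CPM in the NPC library only, to which a lower call was closed. Shares for all measured genes of like span were not computed, so the contrast has no background. All measured genes within the same range of transcript length (9928 genes) had a median log2 ratio of 0.06, with 21.4% higher and 17.0% lower. With the length trend removed, 31 of the 46 adhesion genes were higher, against 2521 of all 13535 measured genes.

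Genes that work with these proteins were counted on 3 lists. Of 29 measured partners of the families, 15 were higher and 2 lower (median log2 ratio 1.23), but 9 were higher once the length trend was removed. Over all 13535 measured genes, 19.6% were higher and 19.8% lower, and 2521 were higher with the length trend removed. Of these 29, 10 reached the filter in the NPC library only. Of the other 19, 6 were higher, against 11.7% of all genes that reached it in the hESC library. LGI1, a secreted synaptic protein, had 1896 reads in the NPC library and 0 in the hESC library and was at least 404-fold higher against the floor of 3 reads (interval from 328-fold). LRRC4C, the netrin-G1 ligand, had 15.2 CPM in the NPC library and 0.460 CPM in the hESC library, a ratio of 33.0 (16.6 to 76.9). MDGA1, which blocks neuroligins from binding neurexins, had 39.6 CPM in the NPC library and 1.496 CPM in the hESC library, a ratio of 26.4 (17.9 to 40.7). Among the lower genes, DAG1, the gene of dystroglycan, had 105 CPM in the NPC library and 228 CPM in the hESC library and was 2.16-fold lower, a call lost with library totals (log2 ratio -0.76).

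Some receptors that SLITRK and FLRT proteins bind were higher and none was called lower. PTPRD had 140 CPM in the NPC library and 57.2 CPM in the hESC library, and PTPRS had 521 CPM in the NPC library and 203 CPM in the hESC library, and both were higher (2.45, 2.29 to 2.63, and 2.56, 2.47 to 2.66), though neither was called with the length trend removed (log2 ratios of 0.86 and 1.04). PTPRF had 163 CPM in the NPC library and 253 CPM in the hESC library and was not called. Of the UNC5 receptors, UNC5C was 8.99-fold higher (6.68 to 12.4), while UNC5D had 32.8 CPM in the NPC library and 70.9 CPM in the hESC library and lay just short of a lower call (0.462, 0.423 to 0.504), which it passed with DESeq2 size factors, with the point ratio and with the length trend removed. UNC5A had 9.85 CPM in the NPC library and 18.9 CPM in the hESC library, UNC5B had 27.7 CPM in the NPC library and 35.3 CPM in the hESC library, and neither was called.

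Of 27 measured genes on the list of other immunoglobulin-superfamily adhesion proteins, 12 were higher and 3 lower (median log2 ratio 0.89). Over all measured genes, 19.6% were higher and 19.8% lower. Of these 27, 4 reached the filter in the NPC library only and 2 in the hESC library only. Of the other 21, 9 were higher, against 1388 of all 10804 genes that reached it in both libraries. DCC, the netrin receptor, had 118 CPM in the NPC library and 2.19 CPM in the hESC library, a ratio of 53.8 (39.1 to 76.2). BOC, a hedgehog co-receptor, was 17.4-fold higher (13.99 to 21.8) and JAM2, a junctional adhesion gene, 11.6-fold higher (10.1 to 13.4). IGSF21, a neurexin-2 binding protein, had 3.93 CPM in the NPC library and 24.97 CPM in the hESC library and was 6.35-fold lower. LINGO1, a Nogo receptor partner, was 3.65-fold lower and PVRL1, the gene of nectin-1, 2.57-fold lower, and the call of PVRL1 was lost with library totals (log2 ratio -1.01).

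On the list of ligands, sheddases, polysialylation enzymes and cytoskeletal anchors, 9 of 30 measured genes were higher and 2 lower. Over all measured genes, 19.6% were higher and 19.8% lower. Of these 30, 3 reached the filter in the NPC library only and 1 in the hESC library only. Of the other 26, 7 were higher, against 1388 of all 10804 genes that reached it in both libraries. The median log2 ratio of the 30 genes was 0.19, which turns to -0.10 with the length trend removed. Besides the polysialic acid enzymes, PTPRM, a homophilic receptor phosphatase, had 108 CPM in the NPC library and 10.6 CPM in the hESC library, a ratio of 10.1 (8.74 to 11.8). ANK2, an axonal ankyrin, was 6.03-fold higher (5.55 to 6.57), while ANK3, the ankyrin of the axon initial segment, had 89.1 CPM in the NPC library and 81.6 CPM in the hESC library and was not called. The lower genes were EZR, which encodes ezrin, with 201 CPM in the NPC library and 662 CPM in the hESC library (3.30-fold), and ANK1, with 4.9995 CPM in the NPC library and 13.9 CPM in the hESC library (2.78-fold). With library totals or a filter at 20 CPM, ANK1 was no longer called.

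**Figure D4:**
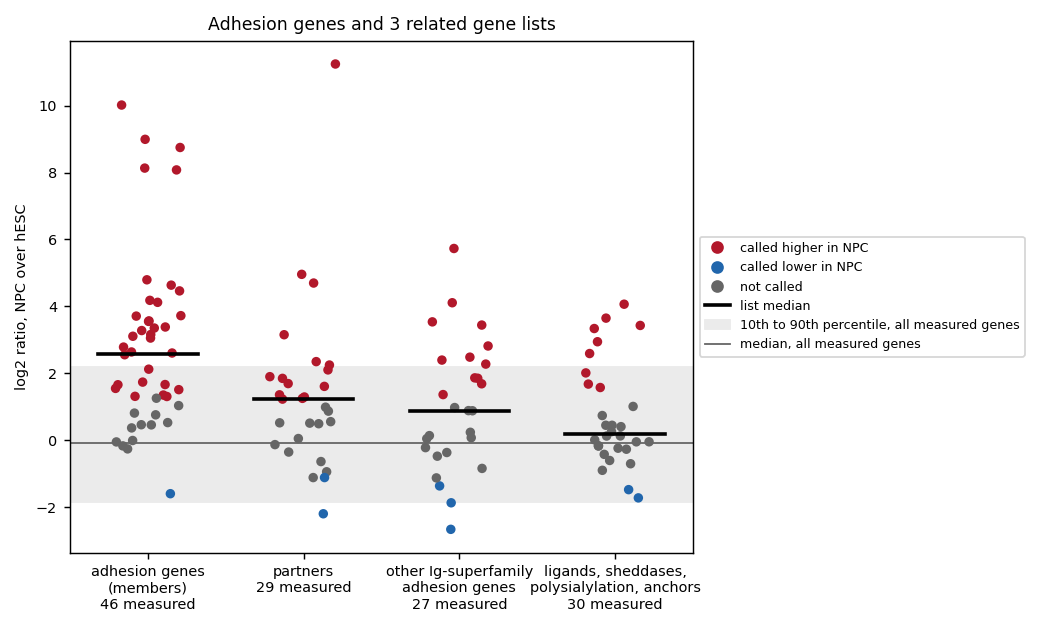
Log2 ratio (NPC over hESC) of each measured gene for the adhesion genes and for 3 lists of related genes, with points spread sideways for legibility and coloured by call. Black bars are list medians (2.58, 1.23, 0.89 and 0.19, left to right), the grey band spans the 10th to 90th percentile of all measured genes, and points of genes with 0 hESC reads depend on the 0.5 added to each count.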

How the data were processed

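mRNA was sequenced from 1 NPC and 1 hESC culture. The authors deposited whole-number counts for each gene symbol, not normalized. The submitters' processing notes name TopHat, edgeR and hg19 without their roles. How reads were counted, with which strand rule and annotation, is not given in the sources used here. Each file held 25737 rows, and 286 symbols stood on several rows, of which the row with most reads was kept (24462 symbols).

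Counts were scaled with TMM factors (edgeR 4.0.16, R 4.3.3), 1.13 for the NPC and 0.884 for the hESC library. Ratios carry Clopper-Pearson 95% intervals on the NPC share of a gene's reads (scipy 1.17.1), log2 ratios have 0.5 added to each count, and a fold against 0 reads uses a floor of 3 reads in that library. Intervals cover counting error only and treat each read as an independent draw. No molecular identifiers are named in the labels, so repeated copies of the same molecule could not be set aside. The intervals may therefore be too narrow, and by how much was not tested. The filter for measured genes was 5 CPM in NPC or hESC (136 or 86.9 reads), and a near bound of at least 2-fold made a call. The ratio code was tested on simulated data.

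Transcript lengths, spans and overlaps came from GENCODE 29, another build than hg19, and promoters from RefSeq. Members and lists were chosen with earlier results of these data known. On the partner list 43 of 46 symbols were found. The rule names every member and the called genes of each related list with the farthest bounds, and 1 member and 1 gene of a list are not reported here, though they count in the totals. The genes ADGRL1 to ADGRL3, IGLON5, PTPRD, PTPRS, PTPRF, UNC5A to UNC5D, ANK2 and ANK3, the antisense RNAs, PC and STAG2 were named after their values were seen. Alternatives were other scaling (library total, DESeq2 1.42.0, upper quartile), filters at 1 and 20 CPM or none, a 4-fold bound, the point ratio, summed rows, log2 of CPM + 1 and removal of the length trend (lowess in statsmodels 0.14.6, fraction 0.5).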

Additional observations from a re-analysis of the deposited data

How the results depend on the processing

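No paired analysis was possible because each group had 1 library. Across the alternatives 24 to 35 adhesion genes were higher, and their median log2 ratio lay between 2.19 and 3.11. No called gene among them changed direction. Library totals shift every log2 ratio by 0.36, and the share of higher calls among all calls was then 67.2%, against 49.7% with TMM. The number of lower adhesion genes was 2 with a filter at 1 CPM or none, where LRFN2 joined NLGN4X, and 0 with a 4-fold bound. Over all genes, 1684 were higher with a filter at 20 CPM and 2521 with the length trend removed. With the 4-fold bound, 1236 were higher and 983 lower. Of the partner list, 9 genes were higher with a filter at 20 CPM, 9 with the length trend removed and 5 with the 4-fold bound, while 1 was lower with library totals and 0 with the 4-fold bound. Lower genes on the list of other immunoglobulin-superfamily genes numbered 5 with no filter and 1 with the 4-fold bound. On the list of ligands, sheddases and anchors, 1 gene was lower with library totals, 1 with a filter at 20 CPM and 0 with the 4-fold bound, and the median log2 ratio was -0.10 with the length trend removed. Stricter filters and bounds test fewer genes or ask for larger ratios by construction, and for the length trend the cause was not tested. Depth limits the genes near 5 CPM and those with under 10 hESC reads, whose intervals are wide.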
